A study of Mus musculus with 36 samples.

Results

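The genes described here encode the ligands, receptors, signal transducers and nuclear factors of the TGF-beta/BMP, Wnt and Notch pathways. They were taken by gene symbol: the families Tgfb, Tgfbr, Bmp, Bmpr, Smad, Acvr, Inhb, Ltbp, Wnt, Fzd, Lrp, Axin, Tcf7, Notch, Jag, Hes and Hey followed by a number, a, b or l, together with Skil. The rule used no measured value. It found 40 genes among the 9822 genes with a listed peak, and 74 of the 13958 listed peaks. The H3K9ac table held 57 of these peaks (31 genes), that for H3K9me3 held 10 (6 genes) and that for H3K4me3 held 7 (7 genes). A few symbols that match belong to other proteins: Lrp1, Lrp1b and Lrp2 are endocytic receptors of the LDL receptor family, Tgfb1i1 is a focal adhesion adaptor and Fzd10os is an antisense transcript.

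The cells were primary aortic smooth muscle cells from mice with a global knockout of CSE (cystathionine gamma-lyase, an enzyme that makes hydrogen sulfide; gene Cth) and from wild-type C57BL/6N mice. All cells, knockout and wild type, had received angiotensin II, a vasoconstrictor peptide, at 1 µM for 24 h, so no untreated cells enter any comparison. Chromatin immunoprecipitation with sequencing was done for H3K9ac and H3K4me3, marks of active promoters, and for H3K9me3, a mark of heterochromatin, with 3 immunoprecipitated and 3 input libraries per mark and genotype (36 in all). The labels do not say whether libraries came from separate animals or cultures, so the authors' p-values measure a spread that may be technical. The values are the authors' group means and their own comparison of knockout with wild type: no value per library, library depth or spread between replicates could be given. Every level below is the mean normalised read number of a peak, and every fold change is the knockout over the wild type; depth behind each value is unknown. Only peaks with an unadjusted p up to 0.05 are listed, and none with a p under 0.0001, so a strong difference at a member gene may be missing from these tables. Cth itself has no listed peak, so these tables hold no check of the knockout. Absence of a peak from the tables therefore says nothing about the mark at that gene.

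TGF-beta and BMP ligands bind pairs of type I and type II receptor kinases, which phosphorylate receptor-regulated SMAD proteins; these enter the nucleus, while the inhibitory SMADs Smad6 and Smad7 limit the signal. Wnt ligands act through Frizzled receptors with Lrp5 or Lrp6 and the TCF/LEF factors, or through routes that do not use beta-catenin. Notch receptors are cleaved when a Jagged or Delta ligand on a neighbouring cell binds them, and their intracellular part acts with RBPJ on Hes and Hey genes. In the aortic wall TGF-beta signalling governs matrix production and the contractile state of smooth muscle, and human variants in TGFBR2 and SMAD3 cause heritable aortic aneurysm.

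The promoter sequences shown are the 250 bases before start sites, where this window overlapped a listed peak by at least 1 base. They were chosen with the values known, as the start-site peak of smallest p per pathway and direction among genes with a sequence entry. Bmp6 is added as the next in p of its pathway with the largest decrease, and the upstream start of Wnt5b because it carries another mark than the inner start. Capitals mark the searched motifs on either strand: CAGAC (a SMAD box), CTTTGAT (TCF/LEF), GTGGGAA (RBPJ) and CACGNG (HES). All come from RefSeq, build GRCm38.p6, and are written 5′ to 3′ on the gene's strand. The listed peak covers only part of the Wnt16 and Bmp6 windows, from position 22288204 in Wnt16 and 38345590 in Bmp6. The CAGAC marked in Wnt16 lies outside its peak.
Smad9, chr3:54755332-54755581, plus strand, H3K9ac lower in the knockout: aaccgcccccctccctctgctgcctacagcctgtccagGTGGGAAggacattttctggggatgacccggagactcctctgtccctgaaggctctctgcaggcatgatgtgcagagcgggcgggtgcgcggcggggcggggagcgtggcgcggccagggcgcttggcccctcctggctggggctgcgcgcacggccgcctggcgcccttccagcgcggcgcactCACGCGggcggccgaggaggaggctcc
Bmp6, chr13:38345466-38345715, plus strand, H3K9ac lower in the knockout: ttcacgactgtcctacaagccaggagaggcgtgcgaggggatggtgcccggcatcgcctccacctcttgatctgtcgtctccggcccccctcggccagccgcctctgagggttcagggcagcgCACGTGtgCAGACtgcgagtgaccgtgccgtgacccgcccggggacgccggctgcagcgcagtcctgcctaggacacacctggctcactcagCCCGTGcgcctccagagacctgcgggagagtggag
Wnt5b inner start, chr6:119449387-119449636, minus strand, H3K9ac lower in the knockout: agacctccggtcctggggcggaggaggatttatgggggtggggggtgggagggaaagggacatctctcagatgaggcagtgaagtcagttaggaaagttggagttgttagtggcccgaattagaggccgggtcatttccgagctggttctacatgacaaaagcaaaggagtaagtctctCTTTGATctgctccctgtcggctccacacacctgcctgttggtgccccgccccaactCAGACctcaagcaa
Wnt5b upstream start, chr6:119544348-119544597, minus strand, listed for H3K4me3: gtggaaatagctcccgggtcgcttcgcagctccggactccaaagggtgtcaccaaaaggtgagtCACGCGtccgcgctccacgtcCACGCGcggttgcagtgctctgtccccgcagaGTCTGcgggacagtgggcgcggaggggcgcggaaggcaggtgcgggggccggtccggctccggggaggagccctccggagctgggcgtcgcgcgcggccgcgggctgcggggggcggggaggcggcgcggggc
Wnt16, chr6:22287977-22288226, plus strand, H3K9ac higher in the knockout: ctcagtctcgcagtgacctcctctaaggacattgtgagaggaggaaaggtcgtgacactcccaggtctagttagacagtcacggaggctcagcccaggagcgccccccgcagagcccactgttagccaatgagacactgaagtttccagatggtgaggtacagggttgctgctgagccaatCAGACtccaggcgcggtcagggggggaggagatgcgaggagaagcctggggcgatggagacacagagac
Notch1, chr2:26503823-26504072, minus strand, H3K9ac lower in the knockout: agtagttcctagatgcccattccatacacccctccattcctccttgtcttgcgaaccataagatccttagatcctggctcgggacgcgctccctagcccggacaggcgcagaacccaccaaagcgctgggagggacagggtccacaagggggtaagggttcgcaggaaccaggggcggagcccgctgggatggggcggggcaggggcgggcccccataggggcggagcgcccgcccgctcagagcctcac

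Of the 40 genes, 29 had an entry in the promoter table, and 16 windows of 14 genes overlapped a listed H3K9ac or H3K4me3 peak, some only in part. Those 16 windows had a median GC content of 67.8% and 21 CG dinucleotides, against 52.4% and 6 over all 32851 promoter windows of the same length. The inner Wnt5b window stood apart from its upstream counterpart: 55.6% GC and 7 CG dinucleotides at the inner start, against 75.2% and 35 at the upstream start. The SMAD box was found in 6 of the 16 windows (37.5%, against 42.2% of all windows), the TCF/LEF letters in 2 (12.5%, against 3.21%), the RBPJ letters in 3 (18.8%, against 5.42%) and the HES letters in 7 (43.8%, against 23.5%). These matches describe letters only, over few windows, and the Notch1 window held none of the 4 motifs. The 16 include overlapping windows of Ltbp4, both with HES letters, so that sequence is counted more than once. The comparison set is all promoter windows, not those that overlap a listed peak, and it is poorer in CG. The HES letters themselves hold a CG, so these shares are not matched for base content.

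H3K9ac at these genes was mostly lower in the knockout. Of the 57 peaks, 48 were lower and 9 higher, so 84.2% were lower (95% exact binomial interval 72.1 to 92.5%, counting error only, with peaks of 1 gene counted separately). Of all listed H3K9ac peaks 77.2% were lower, a share inside that interval, so the members' direction followed the table. The mean share of lower peaks on the chromosomes where the 57 peaks lie was 80.5%. By gene, 24 of 31 had only lower peaks, 6 (Acvr1b, Notch2, Smad1, Smad3, Tgfbr2 and Wnt16) only higher peaks, and Wnt7b had 1 of each. The median lower member peak was 2.24-fold lower, against 2.19-fold over the table, and the median higher one 2.23-fold higher, against 2.50-fold. The median log2 fold change was −1.04 over the members and −0.98 over the table.

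**Figure D1:**
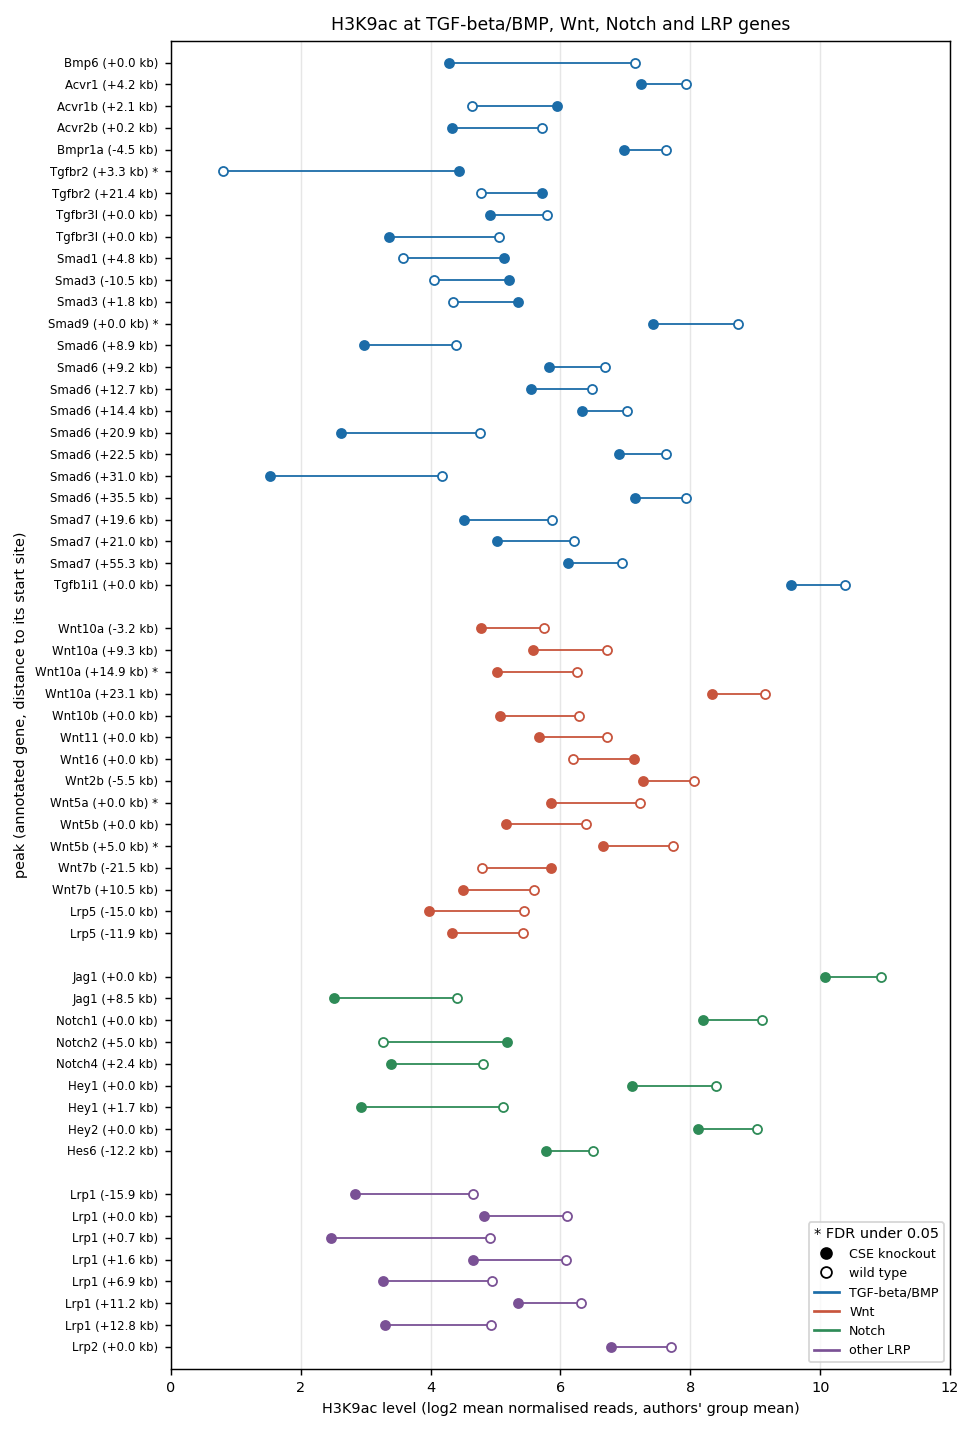
Each row is a listed H3K9ac peak of a member gene, named with its distance to the start of the transcript the authors list; filled points are the authors' mean for knockout cells and open points for wild-type cells, on the log2 scale of normalised reads, and asterisks mark FDR under 0.05. Filled points lie left of open ones in 48 of 57 rows, and the exceptions are 9 peaks of 7 genes.

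Few single peaks passed the authors' correction. At an FDR under 0.05, 5 of 57 member peaks were called (8.77%), against 16.6% of all listed peaks. They were Smad9, Tgfbr2, Wnt5a, Wnt5b and Wnt10a, of which all but Tgfbr2 were lower; of all listed peaks at this FDR, 75.8% were lower. All others below are listed by unadjusted p only. Among the 106 protein-coding symbols that match the rule, 31 (29.2%, 95% exact interval 20.8 to 38.9%) had a listed H3K9ac peak, against 18.1% of all protein-coding genes of the RefSeq table.

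**Figure D2:**
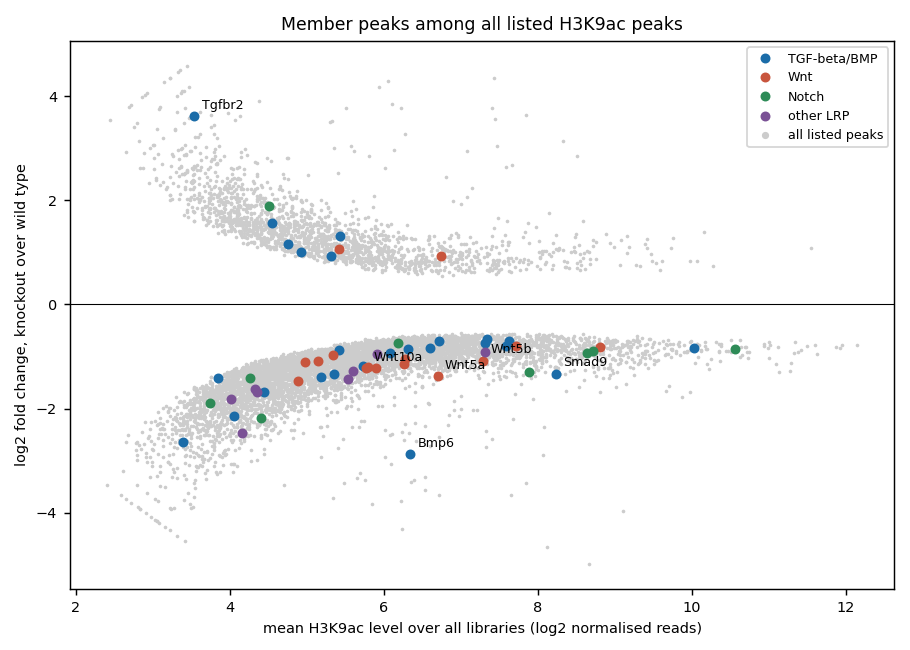
The horizontal axis is the mean H3K9ac level over all libraries and the vertical axis the log2 fold change of knockout over wild type; grey points are all 8115 listed peaks and coloured points the 57 member peaks. Members follow the shape of the table, with Bmp6 (−2.87) below most peaks of its level and Tgfbr2 (3.62) among the low-signal peaks.

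Among the ligand genes of this pathway that match the symbol rule, H3K9ac was listed only at Bmp6, whose product is known as the regulator of hepcidin in liver. Its start-site peak (chr13:38345590-38346661) averaged 19.6 normalised reads in knockout cells and 142 in wild-type cells per the authors' deposited table. This 7.31-fold lower level (log2 fold change −2.87) was the largest H3K9ac decrease among the members, but it carried an FDR of 0.214 (p 0.0221) per the authors' deposited table. The ligand genes Tgfb1, Tgfb2 and Tgfb3 have no listed peak of any of the 3 marks.

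Receptor genes split by direction. Tgfbr2, the type II receptor for TGF-beta, had 2 higher peaks, in introns 1 and 2. The one 3.3 kb inside the gene (chr9:116171552-116171935, intron 1) averaged 21.6 normalised reads in knockout cells and 1.75 in wild-type cells, with log2 fold change 3.62, p 0.00138 and FDR 0.0396 per the authors' deposited table. That 12.3-fold higher level was the largest H3K9ac increase among the members, and it rests on few reads: the wild-type mean was under 2 reads and the peak's mean level was higher than in only 4.09% of listed peaks. The second Tgfbr2 peak, 21.4 kb inside (intron 2), averaged 52.3 normalised reads in knockout and 27.3 in wild-type cells (FDR 0.184 per the authors' deposited table). Acvr1b, the type I receptor for activins also called ALK4, had a peak 2.1 kb inside the gene at 61.8 normalised reads in knockout and 24.8 in wild-type cells (2.50-fold higher, FDR 0.0539, just outside the threshold, per the authors' deposited table).

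The listed type I receptors of the BMP branch and the activin type II receptor Acvr2b were lower instead. Acvr1 (ALK2) and Bmpr1a (ALK3), both type I receptors for BMPs, were 1.62-fold and 1.58-fold lower at an intron peak and a peak annotated as downstream of a gene, with FDRs of 0.256 and 0.244 per the authors' deposited table. Acvr2b, the type II receptor for activins, was 2.62-fold lower (FDR 0.129 per the authors' deposited table) at a peak annotated to the promoter of a listed transcript, 28.3 kb from the RefSeq start of the gene. Both peaks of Tgfbr3l, which encodes a small relative of betaglycan, were lower, by 1.84-fold and 3.23-fold per the authors' deposited table; the first also overlaps Map2k7. In all, receptor genes of this pathway had 3 higher peaks (2 genes) and 5 lower peaks (4 genes).

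All 11 listed H3K9ac peaks of the inhibitory SMADs were lower, 8 of Smad6 and 3 of Smad7, so they come from 2 loci. The exact interval of that share, 71.5 to 100%, counts neighbouring peaks as independent and so is too narrow. Even so, it holds the 77.2% of all listed peaks. The receptor-regulated SMADs Smad1, which serves BMP receptors, and Smad3, which serves TGF-beta and activin receptors, had 3 peaks, all higher. Smad9, the remaining listed receptor-regulated SMAD and a BMP transducer, was lower, and it was the only SMAD gene with an FDR under 0.05. None of the Smad1, Smad3, Smad6 or Smad7 peaks had an FDR under 0.05 per the authors' deposited table.

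Smad9 had the smallest p of all members. Its start-site peak (chr3:54755007-54757378), which covers the sequence shown above, averaged 171 normalised reads in knockout cells and 428 in wild-type cells, 2.51-fold lower (log2 fold change −1.33), with p 1.96e-04 and FDR 0.0103 per the authors' deposited table. This was a strong peak, with a level above 94.4% of listed peaks.

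The 8 Smad6 peaks lay with their centres 14.1 to 41.8 kb downstream of the RefSeq start of the gene and spread over 29.1 kb, in introns and an exon, so they are neighbours in 1 locus and not independent. The strongest (chr9:63979004-63981454) averaged 141 normalised reads in knockout and 246 in wild-type cells (1.74-fold lower, FDR 0.0879 per the authors' deposited table). The weakest (chr9:63985793-63985961) averaged 2.89 normalised reads in knockout and 18.1 in wild-type cells (6.28-fold lower, log2 fold change −2.65, p 0.0127, FDR 0.155 per the authors' deposited table). The other 6 were 1.62-fold to 4.41-fold lower per the authors' deposited table. The lower stretch went on past the peaks annotated to Smad6: within 70 kb downstream of that start all 13 listed H3K9ac peaks were lower. Of these, 5 were annotated to Gm36033, and where they lie relative to the end of Smad6 was not determined.

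Smad3 lies on the same chromosome, with its RefSeq start 264.1 kb from that of Smad6, and went the other way. Its peak 1.8 kb from the start of a listed transcript, 8.7 kb from the RefSeq start (chr9:63748861-63749254), averaged 40.5 normalised reads in knockout and 20.3 in wild-type cells (log2 fold change 1.00, p 0.0328, FDR 0.262 per the authors' deposited table). The second (chr9:63677095-63677632), in intron 1, averaged 37.0 normalised reads in knockout and 16.6 in wild-type cells (2.23-fold higher, log2 fold change 1.16, p 0.0453, FDR 0.309 per the authors' deposited table). From 100 to 350 kb downstream of the RefSeq start of Smad6, all 3 listed H3K9ac peaks were higher. Over chromosome 9 as a whole 80.8% of listed H3K9ac peaks were lower. Smad1, on another chromosome, had a level of 5.13 in knockout and 3.58 in wild-type cells (log2 normalised reads) at a peak in its first intron, 2.95-fold higher (log2 fold change 1.56, p 0.0288, FDR 0.245 per the authors' deposited table).

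**Figure D3:**
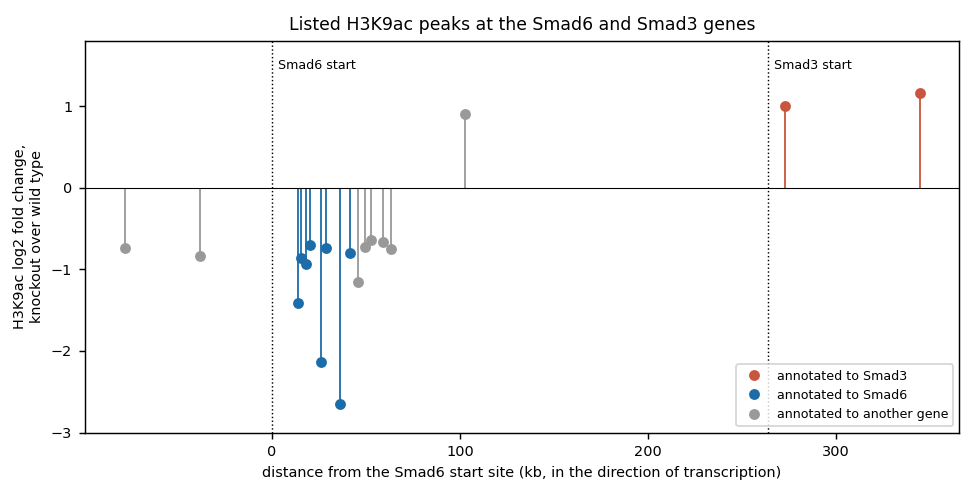
The horizontal axis is the distance of peak centres in kb from the RefSeq start of Smad6 and the vertical axis the log2 fold change of knockout over wild type; each point is a listed H3K9ac peak, coloured by the gene it is annotated to (Smad3, Smad6 or another gene). The 13 peaks from 14.1 to 63.6 kb lie below 0 and the 3 peaks from 102.8 to 344.7 kb, among them both Smad3 peaks, lie above it.

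Smad7 had 3 lower peaks toward and beyond the end of the gene. They averaged 22.9, 32.4 and 69.6 normalised reads in knockout cells, against 58.5, 74.0 and 124 in wild-type cells, per the authors' deposited table, and were 2.53-fold, 2.28-fold and 1.79-fold lower. Their log2 fold changes were −1.34, −1.19 and −0.84, with p 0.00915, 0.0106 and 0.0278 and FDR 0.128, 0.140 and 0.241 per the authors' deposited table. The third lies 55.3 kb from the annotated Smad7 start, within Ctif. On that chromosome only 36.8% of listed H3K9ac peaks were lower, so these 3 peaks run against the share of their chromosome. Tgfb1i1, whose product Hic-5 is an adaptor induced by TGF-beta, was 1.78-fold lower at its start site, at 750 normalised reads in knockout and 1333 in wild-type cells (FDR 0.137 per the authors' deposited table). It was among the strongest peaks of the table, above 99.2% of them.

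Among Wnt genes, 13 of 15 H3K9ac peaks were lower (86.7%, 95% exact interval 59.5 to 98.3%), near the 77.2% of all listed H3K9ac peaks. The 3 Wnt peaks with an FDR under 0.05 were annotated to ligand genes, as were 13 of the 15. Wnt5a, a ligand of the routes that do not use beta-catenin, averaged 57.7 normalised reads in knockout and 150 in wild-type cells at its start site (chr14:28504207-28506255), 2.60-fold lower (log2 fold change −1.38) with p 0.00116 and FDR 0.0351 per the authors' deposited table. Wnt5b, its close paralogue, had a peak (chr6:119443205-119444350) 5.0 kb downstream of its inner start and 100.6 kb downstream of its upstream start. That peak averaged 100 normalised reads in knockout and 212 in wild-type cells, 2.11-fold lower (log2 fold change −1.08) with p 5.1e-04 and FDR 0.0205 per the authors' deposited table. The Wnt5b peak over the inner start site (chr6:119448837-119449812) averaged 35.8 normalised reads in knockout and 83.9 in wild-type cells (2.35-fold lower, log2 fold change −1.23, p 0.00564, FDR 0.0969 per the authors' deposited table). Wnt10a, a beta-catenin ligand, had 4 lower peaks over 30.8 kb. The one 14.9 kb from the annotated start (chr1:74808307-74808877) averaged 32.7 normalised reads in knockout and 76.1 in wild-type cells, 2.33-fold lower (log2 fold change −1.22) with p 6.28e-04 and FDR 0.0237 per the authors' deposited table. That peak is annotated as intergenic and is tied to Wnt10a by proximity only.

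The remaining ligand genes were Wnt10b (2.31-fold lower, FDR 0.210), Wnt11 (2.06-fold lower, FDR 0.152) and Wnt2b (1.73-fold lower, FDR 0.210) per the authors' deposited table; the first pair had their peaks at the start site, Wnt2b 5.5 kb upstream. Wnt16 was the exception at a start site: its peak (chr6:22288204-22289474) averaged 140 normalised reads in knockout and 73.0 in wild-type cells, 1.92-fold higher with p 0.00667 and FDR 0.107 per the authors' deposited table. On chromosome 6 as a whole 84.0% of listed H3K9ac peaks were lower. Wnt7b had an intronic peak 2.13-fold lower and an intergenic peak 21.5 kb upstream 2.10-fold higher per the authors' deposited table. Both peaks of Lrp5, a Wnt coreceptor, were lower, at 20.1 and 15.7 normalised reads in knockout cells, against 43.1 and 43.4 in wild-type cells (FDR 0.307 and 0.0895 per the authors' deposited table). The 10 Frizzled genes, Axin1 and Axin2 have no listed peak.

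Notch pathway genes had 8 lower peaks and 1 higher peak (88.9% lower, 95% exact interval 51.8 to 99.7%, which holds the 77.2% of all listed H3K9ac peaks), and 0 of the 9 had an FDR under 0.05. Jag1, a ligand, carried the strongest member peak: over its start site H3K9ac averaged 1075 normalised reads in knockout and 1951 in wild-type cells (1.82-fold lower, FDR 0.269 per the authors' deposited table). Notch1 averaged 294 normalised reads in knockout and 549 in wild-type cells at its start site (1.85-fold lower, FDR 0.170 per the authors' deposited table). The target genes Hey1 and Hey2, repressors downstream of Notch, were lower at their start sites too. Hey1 averaged 137 normalised reads in knockout and 338 in wild-type cells (2.46-fold lower, p 0.00208, FDR 0.0520, just outside the threshold, per the authors' deposited table). Hey2 averaged 276 normalised reads in knockout and 523 in wild-type cells (1.91-fold lower, FDR 0.226 per the authors' deposited table). Each of these 4 start-site peaks stood above 92.3% or more of listed peaks in level.

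Weaker Notch peaks lay away from these starts. A second Hey1 peak, 1.7 kb from a start, was 4.56-fold lower and a second Jag1 peak, in an intron, 3.71-fold lower per the authors' deposited table, at 7.62 and 5.70 normalised reads in knockout cells, against 34.8 and 21.1 in wild-type cells. Notch4 was 2.66-fold lower (FDR 0.211 per the authors' deposited table) at a peak 16.1 kb from its RefSeq start. The Hes6 peak, 1.67-fold lower per the authors' deposited table, lies 12.2 kb upstream within Per2 and is tied to Hes6 by proximity only. Notch2 had the higher peak: 5.0 kb inside the gene, in intron 1, it averaged 36.0 normalised reads in knockout and 9.65 in wild-type cells (3.73-fold higher, log2 fold change 1.90, p 0.00656, FDR 0.107 per the authors' deposited table). Notch3, the receptor known for its role in arterial smooth muscle, has no listed peak.

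Among the LRP genes that serve endocytosis, all 7 Lrp1 peaks and the Lrp2 peak were lower. Lrp1 is known for restraining TGF-beta and PDGF signalling in the mouse vessel wall. Its peaks were spread over 45.3 kb, 37.5 to 82.2 kb from the RefSeq start, and were 1.95-fold to 5.50-fold lower with FDRs of 0.0507 to 0.267 per the authors' deposited table. The largest difference (chr10:127538296-127538904) averaged 5.50 normalised reads in knockout and 30.3 in wild-type cells (log2 fold change −2.46, p 0.002 per the authors' deposited table). Of the 7, 3 are annotated as promoter of a listed transcript although they lie 37.5, 40.9 and 82.2 kb from the RefSeq start. Lrp1 lies on chromosome 10, where 89.4% of listed H3K9ac peaks were lower. Lrp2 was 1.88-fold lower at its start site (FDR 0.298 per the authors' deposited table).

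By the authors' annotation, higher and lower members lay at different places in their genes. Of the 9 higher peaks, 4 lay in a first intron and 1 over a start site; of the 48 lower peaks, 0 lay in a first intron and 15 over a start site. Over the table, first introns held 14.5% of higher and 8.64% of lower peaks, and 15.4% of higher and 17.8% of lower peaks lay over a start site. Of the higher members, 5 lay between 1 and 10 kb downstream of a start, against 10 of the lower members; over the table these shares were 25.5% of higher and 25.3% of lower peaks. This description was chosen after the values were seen and carries no test. It depends on the transcripts the authors list: an Lrp1 peak counted over a start lies 37.5 kb from the RefSeq start. A peak they class as promoter is not counted in a first intron. Higher member peaks were also weaker, with a median of 5.34 for the larger of both group levels (log2 normalised reads), against 6.35 for lower member peaks; over the table these medians were 5.55 and 5.90.

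**Figure D4:**
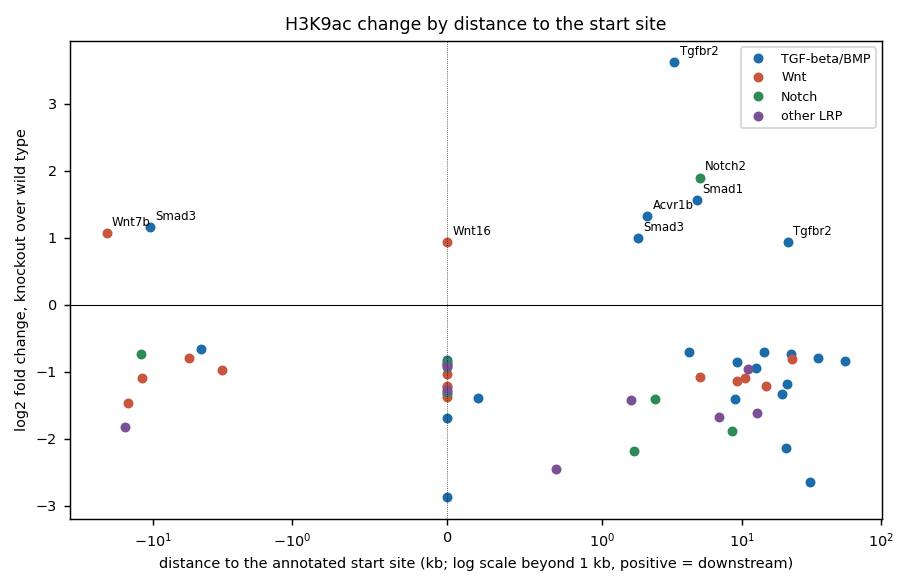
The horizontal axis is the distance from the annotated start site in kb (log scale beyond 1 kb, downstream positive) and the vertical axis the H3K9ac log2 fold change of knockout over wild type; each point is a member peak, coloured by pathway, with the higher peaks named. Over the start site 15 of 16 points lie below 0, and 5 of the 9 points above 0 lie between 1 and 10 kb downstream.

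With 1 call per gene from the promoter peak of smallest p, 16 of 19 member genes were lower (84.2%, 95% exact interval 60.4 to 96.6%), against 78.1% of 3051 genes over the table. The 3 higher genes were Acvr1b, Smad3 and Wnt16. The authors' promoter class reaches to 3 kb from the start of the transcript they list, and for Acvr2b, Lrp1 and Notch4 the peak lay 16.1 kb or more from the nearest RefSeq start.

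H3K9me3 at member genes was mostly higher in the knockout. The median level of the 10 peaks was 4.38, against 2.74 over all listed H3K9me3 peaks (log2 normalised reads). Without Bmp7 the member median was 3.34. Of 10 peaks 9 were higher, against 61% of all listed H3K9me3 peaks, and 5 of them were neighbours in Bmp7. No listed H3K9me3 peak of any gene reached an FDR under 0.05 per the authors' deposited table (0 of 5374, 0%, all listed at an unadjusted p under 0.05), so every H3K9me3 value here is nominal. None of the 10 lay in a promoter. Of the 106 protein-coding symbols 5 (4.72%) had a listed H3K9me3 peak, against 5.52% of all protein-coding genes.

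Bmp7, a BMP ligand known for its role in kidney development, carried 5 of the 10 peaks in 10.2 kb of intron 2. They averaged 62.2, 42.8, 82.1, 47.2 and 13.3 normalised reads in knockout cells, against 3.78, 5.17, 12.3, 6.11 and 2.08 in wild-type cells, per the authors' deposited table. The largest difference (chr2:172903316-172905577) was 16.3-fold (log2 fold change 4.03) with p 0.00184 and FDR 0.825 per the authors' deposited table, and the other 4 were 6.36-fold to 8.28-fold higher. In level, the strongest stood above 98.0% and the weakest above 62.2% of listed H3K9me3 peaks. The run went on past the annotated peaks: within 100 kb of the Bmp7 peaks 14 H3K9me3 peaks were listed, all higher, 26.8 to 112.2 kb from the annotated start, 9 of them annotated to Gm22773. The smallest FDR of the 14 was 0.302 per the authors' deposited table.

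**Figure D5:**
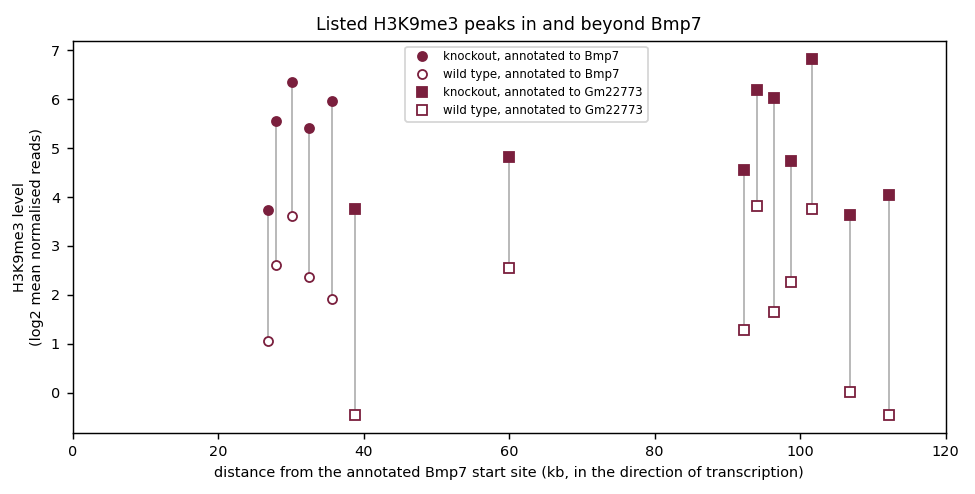
The horizontal axis is the distance in kb from the annotated Bmp7 start site and the vertical axis the H3K9me3 level in log2 mean normalised reads; filled symbols are knockout means, open symbols wild-type means, circles peaks annotated to Bmp7 and squares those annotated to Gm22773. In all 14 peaks the filled symbol lies above the open one.

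The other 5 H3K9me3 peaks belonged to 5 genes. Lrp1b (chr2:41698477-41699111) averaged 19.4 normalised reads in knockout and 0.732 in wild-type cells, the smallest p of the members (3.28e-04, FDR 1 per the authors' deposited table). Ltbp1, a latent TGF-beta binding protein, averaged 9.13 normalised reads in knockout and 0.732 in wild-type cells in an intron (chr17:75054068-75054367, p 0.0105, FDR 1 per the authors' deposited table). For both the wild-type mean is the lowest value in the table, so no fold is given. Fzd10os, a transcript antisense to Fzd10, had an intergenic peak at 108 normalised reads in knockout and 24.4 in wild-type cells (4.44-fold higher, FDR 1 per the authors' deposited table). The only lower peak was intergenic and annotated to Wnt7a, at 4.44 normalised reads in knockout and 32.0 in wild-type cells (7.21-fold lower, log2 fold change −2.85, p 0.028, FDR 1 per the authors' deposited table). It lies 46.7 kb from the annotated start and 93.0 kb from the RefSeq start of Wnt7a. The Fzd10os peak lies 16.6 kb from its annotated start. Both intergenic peaks are tied to these genes by proximity only.

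Smad3 was the only member listed for both H3K9ac and H3K9me3. Its H3K9me3 peak (chr9:63686359-63686711) averaged 11.3 normalised reads in knockout and 1.71 in wild-type cells (6.63-fold higher, log2 fold change 2.73, p 0.0429, FDR 1 per the authors' deposited table). It lies in intron 1, as does the nearer of the higher H3K9ac peaks, 8.7 kb away. The H3K9me3 peak is 71.3 kb from the RefSeq start of Smad3.

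The H3K4me3 table gives positions without level, fold change or direction. Its 7 member peaks were at the start sites of Ltbp4 (a latent TGF-beta binding protein), Tcf7l1 (a TCF factor that mostly represses), Wnt2, Wnt5a and Wnt5b, within 1 kb of the start of Skil (a corepressor that binds SMADs), and in intron 3 of Smad7. Of the 106 protein-coding symbols 7 (6.60%, 95% exact interval 2.70 to 13.1%) had a listed H3K4me3 peak, against 1.83% of all protein-coding genes. The 3 members also listed for H3K9ac were arranged differently. At Wnt5a the peaks of both marks overlapped by 1506 bp at the start site. At Wnt5b the H3K4me3 peak covered the upstream start and the H3K9ac peak the inner start, 93.4 kb apart. At Smad7 the H3K4me3 peak lay 4.1 kb before the nearest lower H3K9ac peak. Across all marks 36 genes were listed for 1 mark and 4 (Smad3, Smad7, Wnt5a and Wnt5b) for 2.

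Other genes of the pathways, outside the symbol rule, were counted from lists written with earlier results of these data known, with 1 call per gene from the peak of smallest p. Their counts stand against 18.1% of protein-coding genes listed for H3K9ac, and against 77.2% lower and 16.6% with an FDR under 0.05 among all listed H3K9ac peaks. The last pair of shares counts peaks and not genes. Taking the peak of smallest p per gene favours a low FDR, so the FDR counts of the lists are not directly comparable with 16.6%. Of 49 TGF-beta and BMP genes 15 had a listed H3K9ac peak, 7 higher and 8 lower, and 4 had an FDR under 0.05. Counted by peak, 11 were higher and 10 lower (median log2 fold change 0.62), so the direction depends on the counting. Gdf6, a BMP-like ligand, was 2.35-fold lower, Ccn2, a matrix gene induced by TGF-beta, 2.36-fold lower, Lrrc32, which anchors latent TGF-beta, 2.25-fold lower and Nrros, its relative, 2.64-fold higher per the authors' deposited table (FDR 0.0170, 0.0139, 0.00966 and 0.0449). Of 58 Wnt genes 17 were listed, 4 higher and 13 lower, and 3 had an FDR under 0.05. Daam2, a Wnt effector on actin, was 2.68-fold lower, Bcl9, a beta-catenin cofactor, 2.57-fold lower and Gsk3a, a kinase, 2.53-fold lower per the authors' deposited table (FDR 0.00651, 0.00976 and 0.0113). Of 37 Notch genes 8 were listed, 3 higher and 5 lower, and 2 had an FDR under 0.05. Rbpj, the DNA-binding partner of Notch, had 3 higher and 2 lower peaks, the smallest p belonging to a peak 4.79-fold higher (FDR 0.0354 per the authors' deposited table), and Dll3, a Notch ligand, was 3.63-fold lower (FDR 0.0261 per the authors' deposited table). Of the H3K9ac peaks named from these lists, those of Gdf6, Ccn2 and Daam2 lay over a start site and that of Rbpj in a promoter. The Lrrc32 and Bcl9 peaks are intergenic, and the Gsk3a peak is annotated as downstream of a gene. Those of Nrros and Dll3 lie in introns but upstream of the annotated start. These last are tied to their genes by proximity only. For H3K9me3 the lists gave 2, 2 and 0 listed genes, and for H3K4me3 1 (Zeb2), 2 (Bcl9 and Tle2) and 2 (Fbxw7 and Lfng).

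These tables cannot show which cell types were present, since they list only differing peaks. Against the same shares, of 8 smooth muscle marker genes 6 had a listed H3K9ac peak, 5 of them lower (Tagln and Lmod1 among them) and Smtn higher. These calls rest on the peak of smallest p, and Acta2, called lower, also had a higher peak. Of 5 endothelial, 5 fibroblast and 5 leukocyte markers 2 each were listed for H3K9ac. Both leukocyte genes (Cd14 and Aif1) were higher, with Cd14 on chromosome 18, where 36.8% of listed H3K9ac peaks were lower. The endothelial genes (Vwf lower, Pecam1 higher) and the fibroblast genes (Pdgfra lower, Lum higher) split. For H3K9me3 the leukocyte marker Adgre1 and the endothelial marker Vwf each had a higher peak. Their part in the members' values was not tested.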

How the data were processed

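ChIP-seq libraries of 3 histone marks were compared between CSE knockout and wild-type cells by the authors, who deposited 1 table of selected peaks per mark. Per the file headers, the authors' tables for H3K9ac and H3K9me3 hold log2 levels (mean normalised reads) per genotype and over all libraries, the log2 fold change (equal to the difference of both group values within 0.01), a p-value and an FDR. Per the same headers, each peak has an annotation and a distance to a start site; the H3K4me3 table deposited by the authors has no level, fold or p-value. CASAVA 1.4 and mm9 stand in the submitters' processing notes. The aligner, peak caller, normalisation and differential method: not given in the sources used here. No other normalisation could be run, and a split into higher and lower peaks can depend on it.

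Peak positions were checked against RefSeq start sites of GRCm38.p6: 40.9% of H3K4me3, 9.27% of H3K9ac and 1.34% of H3K9me3 peaks held one. Of peaks that the authors class within 1 kb of a start, 72.7%, 41.1% and 33.4% had a RefSeq start within 1 kb. Start sites and promoters named here therefore often follow the transcripts the authors list. Positions are those of the authors' tables, taken to be GRCm38 although the notes name mm9, since annotated starts such as that of Smad9 coincide with GRCm38.p6 starts. Members were picked by symbol and read with Python 3.11.15, pandas 2.3.3, numpy 2.4.6 and scipy 1.17.1. Levels were turned into reads as powers of 2 of the log2 values. No test was run over the members: their counts stand beside the same over all listed peaks, with exact binomial intervals of 95%. Motif search and intervals were tested on simulated data. With no values per sample, no count or expression model could be fitted, and the authors' p and FDR are used instead. The members, lists, motifs and tests were chosen with earlier results of these data known. Full values were given for peaks with FDR under 0.05, genes listed for several marks and the largest folds; others were named by role. The printed promoters, the distance classes and the windows around Smad6 and Bmp7 were chosen after values were seen. Alternatives were stricter thresholds, promoter peaks, signal, core members (also without Fzd10os), 1 peak per gene, chromosomes and the members with most peaks.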

Additional observations from a re-analysis of the deposited data

How the results depend on the processing

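The share of lower H3K9ac member peaks was 77.4% to 91.2% under the alternatives tried, within the exact interval of the 84.2% reported: 80% at p under 0.01, 80% at FDR under 0.05 (5 peaks), 91.2% at the stronger peaks, 77.4% with 1 peak per gene, and 78.6% without Smad6 and Lrp1, a choice made after seeing the data. By promoter call the share was 77.8% to 84.2%, and it was 77.4% when the peak of smallest p of any annotation was used (31 genes). The H3K9me3 share of lower peaks was 10% and stayed between 12.5% and 20% for stronger peaks, core members, 1 peak per gene and, chosen after seeing the data, without Bmp7; at p under 0.01 it was 0% of 3 peaks. No H3K9me3 member peak was at a promoter, so that alternative gave no value. The number of H3K9ac member peaks called was 5 at FDR under 0.05, 16 at FDR under 0.1 and 2 at promoters alone; fewer peaks enter the last. The H3K4me3 count was 7, or 6 at promoters. No paired analysis was possible because the tables hold group means and no value per sample; for the same reason no replicate could be left out. Depth per library is unknown, and low levels, as at Tgfbr2 in wild-type cells, limit the precision of the largest folds.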
